A study of Mus musculus with 12 samples.

Results

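The experiment on cultured hippocampal neurons comprised 6 of the 12 RNA-seq libraries of the study, and its 6 members were taken by their titles: 3 cultures infected with AAV2-scramble-GFP and 3 infected with AAV2-shBrpf1-GFP. All 6 came from C57BL/6 mice, and every culture carried a GFP-expressing AAV2, added at day in vitro 3. One label gives embryonic day 18 to 19 as the stage, while the growth protocol and the paper give other embryonic days. The source field of every library reads neural progenitor cells, although the titles name neurons. A replicate number from 1 to 3 in the titles joined each scramble culture to one shBrpf1 culture, and the paper describes pairs of cultures. Each table lists 27179 gene IDs, and the 16066 that reached 10 counts in 3 or more of the 6 libraries were tested.

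BRPF1 is a chromatin reader with bromodomain and PHD finger modules. It serves as the scaffold of a histone acetyltransferase complex, in which it links the catalytic subunit KAT6A, KAT6B or KAT7 to ING5 and MEAF6. The complex acetylates histone H3 and keeps developmental genes active. In mice Brpf1 is needed for the development of the forebrain and hippocampus, and in people variants of BRPF1 cause intellectual disability.

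The sequence that defines the treatment is shown first, because the whole comparison rests on it. The 21-base sense strand matches exon 7 of Brpf1 at chr6:113318477-113318497 of GRCm38 on the forward strand, within codons 688 to 695. It was found in 7 of the 10 annotated Brpf1 transcripts and in no other transcript of the 141767 searched. Capitals in the sense strand mark the 7 bases that pair with the seed, capitals in the antisense strand mark the seed itself (bases 2 to 8), and capitals in the mRNA mark the target.
shBrpf1 sense strand: ggcttaccgctacTTGAACTt
shBrpf1 antisense strand: aAGTTCAAgtagcggtaagcc
Brpf1 mRNA around the target: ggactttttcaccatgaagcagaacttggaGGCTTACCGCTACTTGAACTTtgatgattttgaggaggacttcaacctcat

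Brpf1 transcript levels differed little between the groups. In CPM, the reads of a gene scaled to library size by TMM, Brpf1 was at 23.7, 52.9 and 37.7 in scramble cultures 1, 2 and 3, and at 27.4, 50.2 and 31.9 in the cultures of the same number labelled shBrpf1. The level was higher in the shBrpf1 culture of pair 1 and lower in those of pairs 2 and 3, and the groups overlapped. The paired fit put the log2 fold change at -0.04 (SE 0.12, n = 3 pairs; edgeR quasi-likelihood test, adjusted p = 0.95). Its 95% interval ran from a change of -20.4% to one of 19.4%. An exact two-sided permutation test of the unpaired log2 levels gave p = 0.90, where 3 against 3 libraries cannot go below 0.10. These counts therefore do not show the targeted transcript reduced in the libraries labelled shBrpf1, and every direction given below is that of libraries named by their labels.

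The partners of BRPF1 were measured in all 6 libraries. Kat6a, which encodes a catalytic subunit, had 83.8, 117.9 and 201.0 CPM in scramble and 88.2, 110.8 and 214.9 CPM in shBrpf1 cultures 1 to 3. Ing5, which encodes a histone-binding subunit, had 11.5, 10.01 and 10.9 CPM in scramble and 11.6, 11.5 and 11.3 CPM in shBrpf1 cultures. Differences between pairs were wider than those within a pair for Kat6a, and both genes overlapped between the groups. Of the 16 genes of the BRPF1 complex and of related acetyltransferase complexes, none rose and 1 fell at an unadjusted p under 0.05. Over all tested genes, 3.14% rose and 1.76% fell at that p. The median log2 fold change of the 16 genes was 0.01. The gene that fell was Ing4, which encodes a subunit of KAT7 complexes, at -0.31 (SE 0.12).

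**Figure D1:**
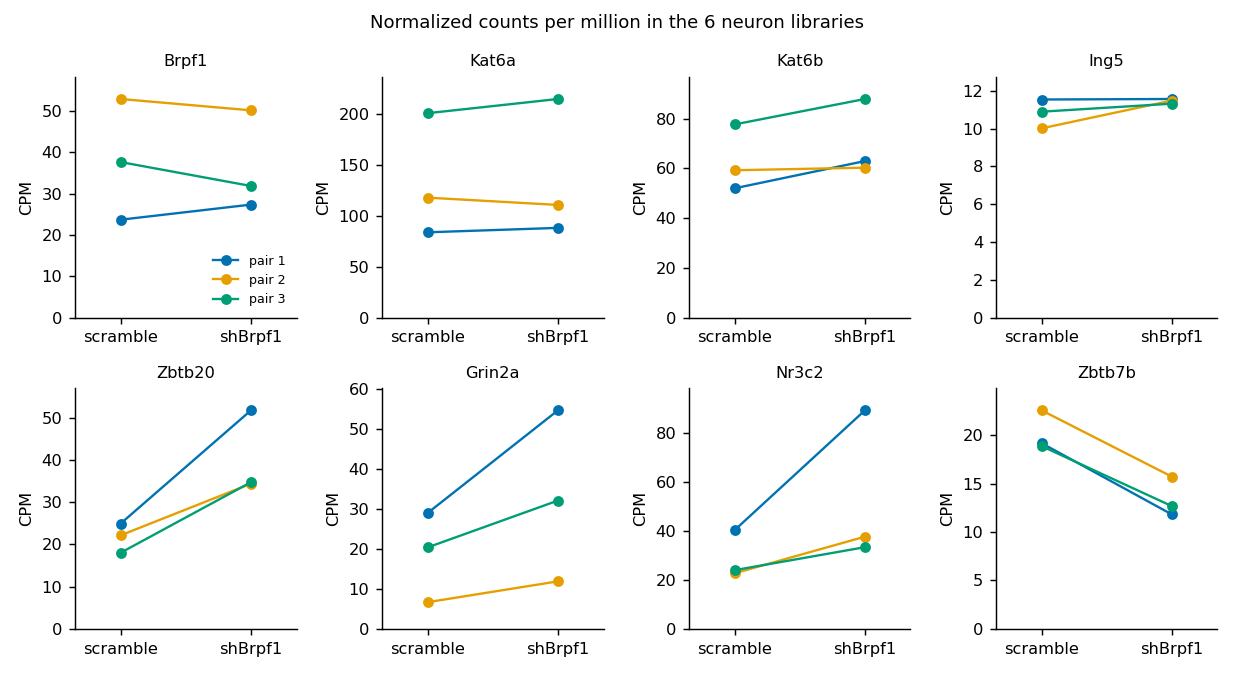
Level in CPM of 8 genes in the 6 libraries; each panel starts at 0, and each line joins the scramble and shBrpf1 cultures of one pair. Brpf1 lay at 23.7 to 52.9 CPM in scramble and 27.4 to 50.2 CPM in shBrpf1 cultures, whereas Zbtb20 lay higher, and Zbtb7b lower, in each shBrpf1 library than in every scramble library.

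Libraries held between 18330618 and 30275304 counts. Rn45s, the ribosomal precursor, took 982 to 6578 CPM in 5 libraries and 37992 CPM in scramble culture 3. The 982 CPM belonged to shBrpf1 culture 3, so the lowest and the highest level were both in pair 3. The pair number set the largest differences between libraries. Deviations from the group means correlated at 0.52, 0.87 and 0.83 across genes within pairs 1, 2 and 3. Across pairs they correlated at between -0.73 and -0.17. Each group was centred on its own mean, so these negative values follow in part from the positive ones and are no separate support. The first 2 principal components took 56.6% and 27.2% of the variance, and their relation to the pairs was not tested. Levels of Xist, expressed from the inactive X chromosome, followed the pairs too, with 210, 569 and 778 CPM in scramble and 189, 649 and 955 CPM in shBrpf1 cultures. The Y-linked Ddx3y ran the other way, at 70.7, 31.6 and 16.1 CPM and at 57.9, 33.1 and 14.6 CPM. The biological coefficient of variation was 0.178 with the pair in the fit and 0.445 without it.

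Cell type markers also differed mainly by pair. The 18 pan-neuronal markers summed to 8260, 3711 and 9008 CPM in scramble and to 9948, 5318 and 8915 CPM in shBrpf1 cultures, so that pair 2 was lowest in both groups. The 20 astrocyte markers summed to 9741, 12365 and 10573 CPM and to 6427, 10244 and 10524 CPM. Neuronal and astrocyte transcripts were thus both abundant in every culture, and neither list's groups were apart. Gfap, the astrocyte filament gene, had 2656 and 3513 CPM in scramble cultures 1 and 2 and 71.4 CPM in scramble culture 3. Foxj1, the regulator of ciliated ependymal cells, had 156 and 142 CPM in pair 2 and 7.2 to 23.8 CPM elsewhere. Only 5 of 18 microglial markers passed the count filter, and the list summed to 16.0 to 57.6 CPM. In bulk RNA, fewer cells of a type and less RNA per cell cannot be told apart.

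**Figure D2:**
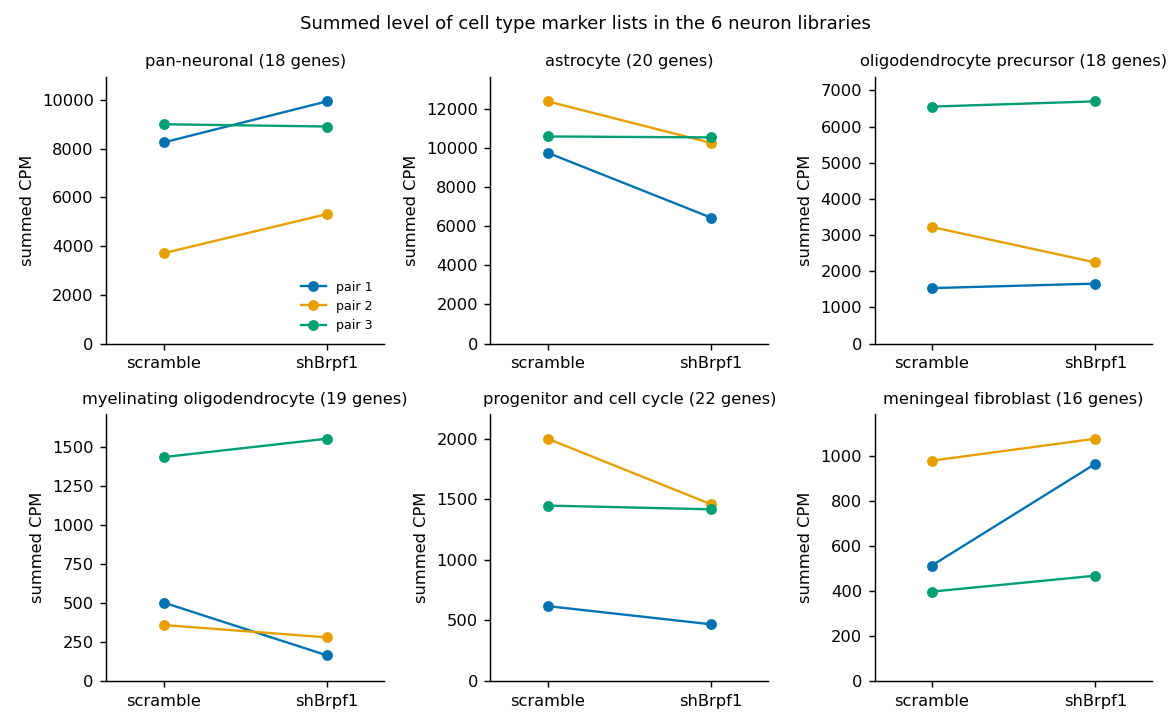
Summed CPM of 6 lists of cell type markers in each library; each axis starts at 0, and each line joins the cultures of one pair. The myelinating oligodendrocyte sum was 502 CPM in scramble and 164 CPM in shBrpf1 in pair 1, and stood at 1433 and 1551 CPM in pair 3.

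Over all genes, 25 were higher (0.156% of those tested) and 26 lower (0.162%) in the cultures labelled shBrpf1 at the study's threshold, a log2 fold change of at least 1 in size with an unadjusted p under 0.05 (edgeR quasi-likelihood test with the pair as a block). Of these 51, 49 changed in one direction in the 3 pairs, and 14 had groups that did not overlap, against 1.48% of all tested genes. Since size and p in these same libraries chose the 51, both counts follow in part from that choice and are no separate support. At an unadjusted p under 0.05 with no minimum size, 504 genes rose (3.14%) and 283 fell (1.76%), together 4.90% of those tested. No gene passed a Benjamini-Hochberg adjusted p of 0.05 in edgeR, where the lowest was 0.85, or in limma-voom, and 1 gene did in DESeq2. Accordingly, "rose" and "fell" below stand for an unadjusted p under 0.05 in the paired fit. Counts of such genes in a list are to be read beside the 3.14% and 1.76% over all tested genes. Without the block, 8 genes were higher (0.0498%) and 1 lower (0.00622%) at the threshold, all 9 of them among the 51, and 12 genes (0.0747%) reached an unadjusted p under 0.05. Of the 125 genes named by rule, 93 rose or fell in the paired fit and 7 did so without the block. Leaving out a pair moved the counts too: there were 53 higher and 15 lower without pair 1, 53 and 68 without pair 2, and 32 and 78 without pair 3.

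The 3 pairs showed little likeness across genes. The within-pair log2 ratios of shBrpf1 to scramble correlated at r = 0.10 between pairs 1 and 2, at -0.04 between pairs 1 and 3, and at 0.08 between pairs 2 and 3, over 16066 genes that are not independent replicates. Ratios kept their sign in the 3 pairs for 28.5% of genes. Pair 1 had the widest ratios, with a standard deviation of 0.71 and 1799 genes at 1 or more in size. Pairs 2 and 3 had standard deviations of 0.35 and 0.38, with 309 and 527 such genes.

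**Figure D3:**
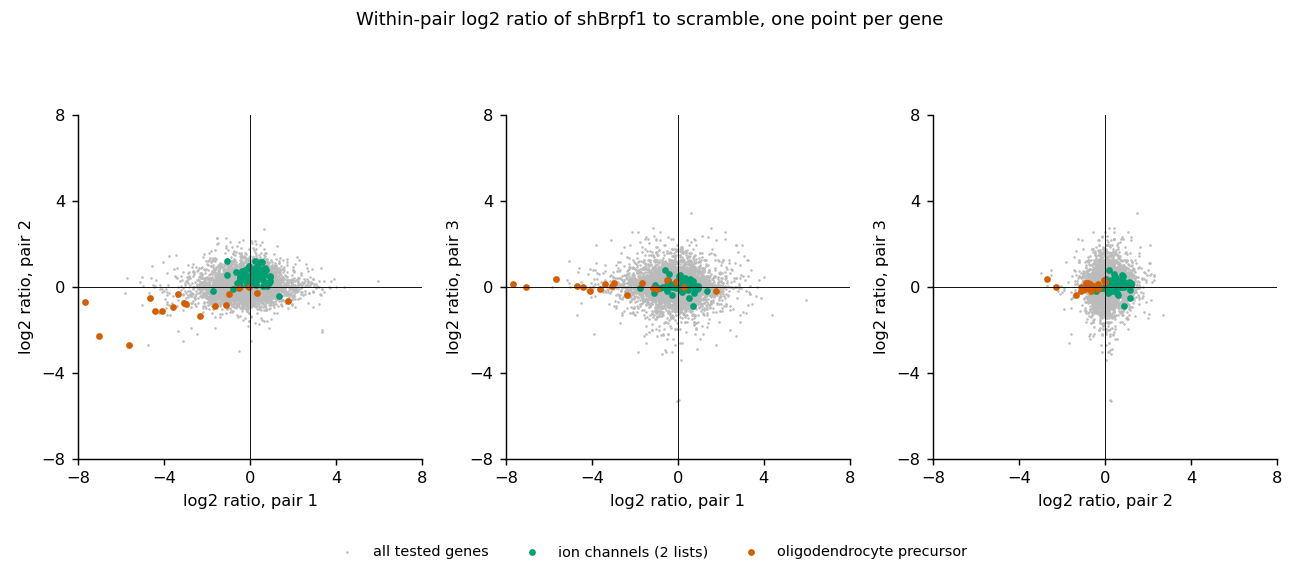
Log2 ratio of shBrpf1 to scramble in one pair against that in another; grey points are the 16066 tested genes, green points the 62 ion channel genes of 2 lists and orange points the 18 oligodendrocyte precursor markers. Precursor markers reached a log2 ratio of -7.69 in pair 1 and lay near 0 in pair 3, and the clouds show correlations of 0.10, -0.04 and 0.08.

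The genes with the lowest p-values rose by less than 2-fold. Zbtb20, a zinc finger repressor that specifies the CA1 pyramidal field in mice, had 25.0, 22.2 and 18.0 CPM in scramble and 51.7, 34.4 and 34.7 CPM in shBrpf1 cultures. Every shBrpf1 library was above every scramble library. Its log2 fold change was 0.88 (SE 0.12, adjusted p = 0.85 in edgeR), and it was the single gene that passed adjustment in DESeq2 with the same block (log2 fold change 0.88, adjusted p = 0.010). Without the block, edgeR put Zbtb20 at 0.89, and its unadjusted p stayed under 0.05.

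Grin2a, which encodes the GluN2A subunit of NMDA receptors, had 29.0, 6.7 and 20.4 CPM in scramble and 54.6, 11.9 and 32.1 CPM in shBrpf1 cultures. Each shBrpf1 culture exceeded its partner, while the groups overlapped because pair 2 was low in both. The log2 fold change of Grin2a was 0.80 (SE 0.11), and it had the lowest p of all genes in the paired fit, but did not pass 0.05 without the block. Nr3c2, the mineralocorticoid receptor gene, had 40.3, 22.7 and 24.0 CPM in scramble and 89.1, 37.6 and 33.3 CPM in shBrpf1 cultures, a log2 fold change of 0.79 (SE 0.15). Kcnv1, Nr4a3 and Cdh8, which encode a potassium channel modifier, an orphan nuclear receptor and a cadherin, also rose in each pair, with log2 fold changes of 0.87, 0.65 and 0.66.

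Among genes that fell, Zbtb7b had the lowest p-value. This zinc finger factor, known for CD4+ T cell commitment, had 19.2, 22.5 and 18.9 CPM in scramble and 11.8, 15.7 and 12.7 CPM in shBrpf1 cultures. The groups were apart, and the log2 fold change was -0.60 (SE 0.12). Wnt7a, a secreted Wnt ligand, had 27.4, 38.8 and 26.5 CPM in scramble and 16.3, 30.7 and 19.8 CPM in shBrpf1 cultures, a change of -0.50 (SE 0.12). Zfp36l2, whose protein destabilizes AU-rich mRNAs, changed by -0.42, Foxo4, a forkhead factor, by -0.54, Oaf by -0.51 and Ppp1r14bl by -0.66.

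Of the 51 genes past the threshold, 28 had under 100 counts in every library. Nrk, a germinal centre kinase family member, had 8, 26 and 6 counts in scramble and 107, 46 and 17 counts in shBrpf1 cultures, a log2 fold change of 1.94 (SE 0.60). Csf2rb2, a cytokine receptor beta chain gene with a near-identical neighbour in mice, had 14, 9 and 6 counts and then 79, 26 and 11 counts, a log2 fold change of 1.70. Both genes had groups apart in CPM and passed the threshold without the block as well. Tgfbi, a matrix protein gene with a log2 fold change of 1.43, had 14.4, 7.0 and 2.5 CPM in scramble and 93.8, 11.8 and 3.3 CPM in shBrpf1 cultures. Il33, which encodes an alarmin cytokine, had 3.1, 3.0 and 2.6 CPM and then 19.3, 6.4 and 3.2 CPM. For Tgfbi and Il33 pair 1 carried most of the difference, with log2 ratios of 2.70 and 2.59 against 0.39 and 0.28 in pair 3. The other large rises were Mgam (1.69), Ptprv (1.64), Gja3, a connexin gene (1.53), Tbx2, a T-box factor (1.51), St8sia6, a sialyltransferase gene (1.49), Col15a1, a collagen gene (1.42), Gbp8 (1.36) and Gm9997 (1.25).

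The largest falls included factors of progenitors and of patterning. Eomes, which marks intermediate progenitors of glutamatergic neurons, had 63, 123 and 3 counts in scramble and 9, 73 and 0 counts in shBrpf1 cultures. It was lower in each pair, and the log2 fold change was -1.73 (SE 0.63). Fgd2, an exchange factor gene for CDC42, had 55, 31 and 5 counts in scramble and 2, 17 and 0 counts in shBrpf1 cultures, and its fitted log2 fold change of -2.51 rests on these few reads. Efna1, the gene of the ephrin-A1 ligand, had 3.2, 2.8 and 0.76 CPM and then 0.66, 1.5 and 0.28 CPM, a log2 fold change of -1.53 (SE 0.41). The chemokine gene Cxcl1 changed by -1.66, Nfe2l3 by -1.57, the atypical cadherin gene Fat2 by -1.48, the ligand gene Wnt3 by -1.34, Prr15 by -1.29, Klf4 by -1.23, Irx1 by -1.22, Myom3 by -1.16 and the Notch pathway gene Dll3 by -1.11. Of the 12 largest rises, 5 had groups apart, and of the 12 largest falls, 2 did, beside 1.48% of all tested genes. These genes were chosen by size, p and sign in the same libraries, which favours such a separation.

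**Figure D4:**
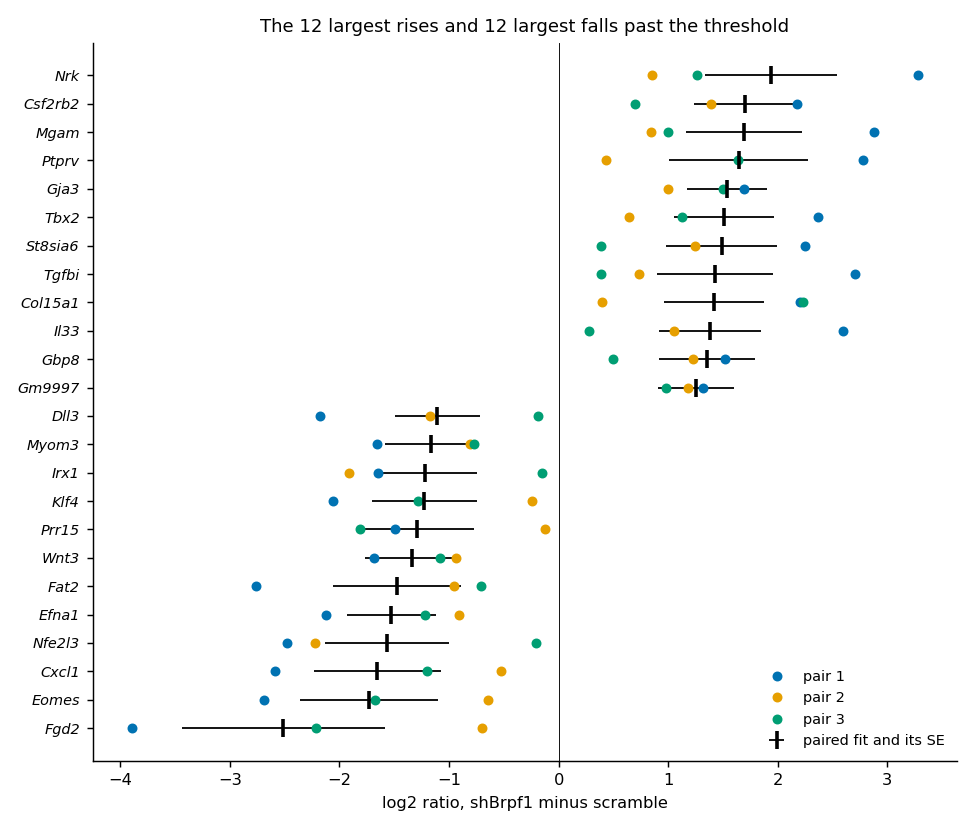
Within-pair log2 ratios (coloured points) and the paired log2 fold change with its standard error (black) for the 12 largest rises and 12 largest falls past the threshold, restricted to genes with one sign in the 3 pairs and at least 1 CPM on average in the higher group. Pair 1 had the ratio farthest from 0 for most genes, as for Nrk (3.28, against 0.85 and 1.27) and Fgd2 (-3.89, against -0.70 and -2.22).

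Ion channel genes of the neuronal membrane were mostly higher in the cultures labelled shBrpf1. General neuronal markers moved with them and with the receptor and synapse genes given next: 16 of the 18 pan-neuronal genes had a positive change, 2 rose, and the median was 0.30, with medians of 0.36, 0.59 and -0.05 in pairs 1, 2 and 3. In the same cultures 18 of 20 astrocyte and 16 of 18 oligodendrocyte precursor markers had a negative change. The part of these cell types in the channel, receptor and synapse lists was not tested. Of the 26 tested sodium and calcium channel genes, 24 had a positive log2 fold change, 10 rose and none fell, against 3.14% of all genes that rose. Their median log2 fold change was 0.33, beside 0.004 over all tested genes, with medians of 0.30, 0.53 and 0.07 in pairs 1, 2 and 3. Cacna1b, the N-type presynaptic calcium channel gene, had 123, 54.1 and 108 CPM in scramble and 192, 89.7 and 123 CPM in shBrpf1 cultures, a log2 fold change of 0.52 (SE 0.13). Cacna2d1, an auxiliary subunit, rose by 0.48 and Cacna1c and Cacna1d, the L-type channels, by 0.37 and 0.30. Scn2a and Scn8a, sodium channels of the axon initial segment, rose by 0.44 and 0.35. Of the 36 potassium and HCN channel genes, 30 had a positive change, 10 rose and none fell, with a median of 0.18. By pair, their medians were 0.13, 0.42 and 0.07. Kcna1, a delayed rectifier of axons, had 189, 53.03 and 112 CPM in scramble and 309, 90.3 and 135 CPM in shBrpf1 cultures, a log2 fold change of 0.58 (SE 0.13). Kcnj3, a G protein-gated channel, and Kcnh1 rose by 0.41 and 0.39. The groups overlapped for the channel genes whose levels are given, and no gene of either list reached an unadjusted p under 0.05 without the block.

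Neurotransmitter receptor genes were also mostly higher. Of 30 glutamate receptor genes and auxiliary subunits, 21 had a positive change, 7 rose and none fell, with a median of 0.17. Pairs 1, 2 and 3 had medians of 0.06, 0.39 and 0.06, with 16, 24 and 18 of the 30 genes higher. Besides Grin2a, Grin2b (the GluN2B subunit) had 118, 29.0 and 118 CPM in scramble and 171, 56.9 and 153 CPM in shBrpf1 cultures, a log2 fold change of 0.63 (SE 0.14). Shisa6, an AMPA receptor auxiliary subunit, rose by 0.68 and Grm5, a metabotropic receptor, by 0.46. Of 17 GABA and glycine receptor genes, 15 had a positive change, 6 rose and none fell, with a median of 0.25. By pair, their medians were 0.11, 0.39 and 0.13. Gabra5, the alpha-5 subunit abundant in hippocampus, had 146, 61.3 and 87.1 CPM in scramble and 267, 96.1 and 97.4 CPM in shBrpf1 cultures, a log2 fold change of 0.56 (SE 0.15). Gabbr2 and Gabra2 rose by 0.54 and 0.51. Without the block, no gene of either receptor list reached an unadjusted p under 0.05.

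Synaptic scaffold, release and adhesion genes mostly had positive changes too, beside 50.8% of all tested genes. Of 26 postsynaptic density genes, 25 had a positive change, 7 rose and none fell (median 0.29), with Lrrc7 (0.46), Homer1 (0.32), Dlgap2 (0.45) and Dlg3 (0.30), all of them scaffold genes, at the lowest p-values. The medians in pairs 1, 2 and 3 were 0.41, 0.30 and -0.01. Of 33 presynaptic release genes, 27 had a positive change and 1 rose, namely Rims1 of the active zone, which had 102, 54.1 and 83.8 CPM in scramble and 143, 69.2 and 94.7 CPM in shBrpf1 cultures (0.34, SE 0.10). This 1 gene of 33 is near the 3.14% over all genes, and the release genes had a median of -0.06 in pair 3, where 12 of 33 were higher. Slc17a7, the vesicular glutamate transporter gene, had 940, 178 and 686 CPM and then 1219, 311 and 684 CPM, and at 0.39 (SE 0.18) it did not pass. Bsn and Cplx2 were at 0.34 (SE 0.15) and 0.38 (SE 0.17) and did not pass either. Of 38 synaptic adhesion and organizer genes, 29 had a positive change and 7 rose (median 0.14), among them Nlgn1 (0.35), Clstn2 (0.48), Lrrtm1 (0.44) and Slitrk5 (0.36). The adhesion list had medians of 0.05, 0.28 and 0.08 in pairs 1, 2 and 3.

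Of 42 axon guidance genes, 29 had a positive change, 14 rose, beside 3.14% of all genes, and 1 fell, the ligand gene Efna1. Their median was 0.20. Plxna4, a semaphorin receptor gene, had 214, 115 and 183 CPM in scramble and 315, 176 and 224 CPM in shBrpf1 cultures, a log2 fold change of 0.49 (SE 0.11). Nrp2, a semaphorin co-receptor, Unc5c, a netrin receptor, and Epha6, an ephrin receptor, rose by 0.49, 0.45 and 0.59. Each of these receptor genes was higher in the shBrpf1 culture of each pair.

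Transcription factors of excitatory neurons moved with these groups. Neurod6, a bHLH factor of hippocampal and cortical projection neurons, had 136, 39.3 and 90.5 CPM in scramble and 270, 88.6 and 102 CPM in shBrpf1 cultures, a log2 fold change of 0.78 (SE 0.20). Neurod1, Neurod2 and Bhlhe22 rose by 0.61, 0.39 and 0.38, so that 4 of the 12 excitatory neuron markers rose and none fell. Of the 18 hippocampal field markers, 7 rose and 1 fell, with a median of 0.37. Amigo2 and Necab2, both enriched in CA2, rose by 0.51 and 0.39, whereas Pou3f1, a POU factor, fell by 0.51. Summed excitatory markers were at 2885, 1715 and 2462 CPM in scramble and at 4705, 2222 and 2192 CPM in shBrpf1 cultures, higher in the shBrpf1 cultures of pairs 1 and 2 and lower in that of pair 3.

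Inhibitory neuron genes did not share one direction. Of 20 markers, 6 had a positive change and 2 rose, Calb2 (calretinin, 0.52) and Vip (0.95), the latter at 0 counts in both cultures of pair 3. Their median was -0.75 in pair 1, 0.58 in pair 2 and -0.02 in pair 3. Sst, the somatostatin gene, had 311, 4.6 and 168 CPM in scramble and 35.8, 7.4 and 146 CPM in shBrpf1 cultures (-0.90, SE 0.85). Gad1, which encodes a GABA-synthesizing enzyme, had 499, 72.9 and 182 CPM and then 306, 102 and 173 CPM.

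Of 26 immediate early genes, which synaptic activity induces, 6 had a positive and 20 a negative change, 3 rose (Nr4a3, Egr3 and Homer1) and 1 fell (Dusp1). Their median was -0.18, with medians of -0.45, 0.14 and 0.01 in pairs 1, 2 and 3. Homer1 was counted above among the postsynaptic density genes too, and counts per gene ID do not tell its transcripts apart. Dusp1, a MAP kinase phosphatase gene, had 41.2, 8.9 and 10.7 CPM in scramble and 12.9, 6.0 and 9.3 CPM in shBrpf1 cultures, a log2 fold change of -0.84 (SE 0.30). Fos had 125, 26.1 and 8.6 CPM and then 39.8, 16.4 and 9.3 CPM (-0.80, SE 0.34, not past the test). Npas4 had 110, 5.3 and 5.6 CPM and then 48.9, 6.9 and 6.9 CPM. Scramble culture 1 was the highest of the 6 libraries for Fos, Npas4 and Dusp1.

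**Figure D5:**
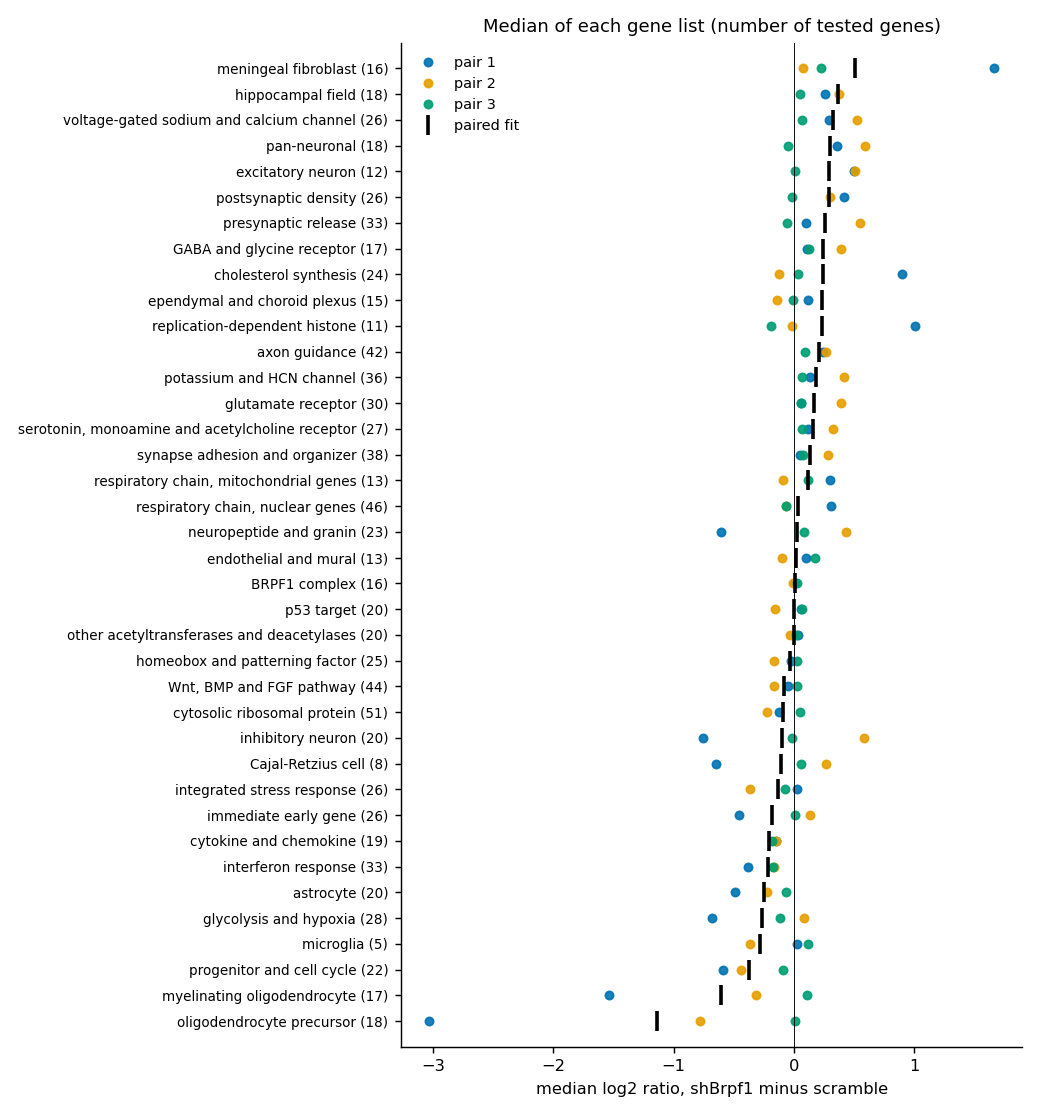
Median log2 ratio of shBrpf1 to scramble for each of the 38 gene lists in pairs 1, 2 and 3 (coloured points) and in the paired fit (black bars), with the number of tested genes. Oligodendrocyte precursor markers ranged from -3.03 in pair 1 to 0.01 in pair 3, while sodium and calcium channels ranged from 0.07 to 0.53.

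Oligodendrocyte lineage genes had the most negative medians in the paired fit, and these came from pairs 1 and 2. Without the block the median was -0.27 in place of -1.14 for precursor markers and -0.18 in place of -0.61 for myelin genes, closer to 0 than those of inhibitory neuron and glycolysis genes (both -0.30). Gpr17, a receptor of committed precursors, had 48.0, 9.2 and 542.1 CPM in scramble and 0.28, 1.8 and 541.9 CPM in shBrpf1 cultures. It was far lower in the shBrpf1 cultures of pairs 1 and 2 and level in pair 3, where its expression was highest, and the paired fit gave -2.41 (SE 1.41), which did not pass the test. Sox10, a lineage factor, had 53.6, 73.0 and 295 CPM and then 2.4, 33.7 and 289 CPM. Pdgfra, the growth factor receptor of precursors, had 141, 352 and 795 CPM and then 44.8, 189 and 897 CPM. Among the 18 precursor markers, 16 had a negative change, but only Olig2 (-0.69, SE 0.22) and Cacng4 (-0.47, SE 0.18) fell and none rose. The median was -1.14 in the fit, and -3.03, -0.78 and 0.01 in the 3 pairs.

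Summed precursor markers did not follow their median in pair 1, at 1534 CPM in scramble and 1658 CPM in shBrpf1 cultures. Ptprz1 and Olig1 made up most of this sum and were higher in the shBrpf1 culture of pair 1, Olig1 with 184 and 629 CPM, while Olig2, its chromosomal neighbour, had 86.1 and 38.7 CPM there. C1ql1, which encodes a secreted synapse organizer and is also made by precursors, had 13.2, 18.0 and 44.3 CPM in scramble and 1.0, 9.3 and 41.6 CPM in shBrpf1 cultures (-1.31, SE 0.71, not past the test). Of 17 tested myelin genes none rose or fell, and the median was -0.61. Mbp, the myelin basic protein gene, had 134, 35.9 and 405 CPM and then 16.7, 29.0 and 444 CPM. Mag and Zfp488 were likewise lower in the shBrpf1 cultures of pairs 1 and 2, with log2 ratios of -3.76 and -4.68 in pair 1, and at 0.35 and 0.03 in pair 3. Rapsn, a receptor clustering protein gene, had 0.55, 0.99 and 0.12 CPM and then 0.07, 0.75 and 0.23 CPM (-0.82, SE 0.71).

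Progenitor, cell cycle and astrocyte genes were mostly lower in the cultures labelled shBrpf1. Of 22 progenitor and cell cycle genes, 20 had a negative change, 9 fell, against 1.76% of all genes, and none rose (median -0.37). By pair, their medians were -0.59, -0.44 and -0.09, and 7 of the 22 were higher in the shBrpf1 culture of pair 3. Rrm2, a ribonucleotide reductase subunit gene, had 14.3, 47.7 and 55.05 CPM in scramble and 9.4, 35.8 and 45.1 CPM in shBrpf1 cultures, a log2 fold change of -0.43 (SE 0.11). Cdk1, the mitotic kinase gene, Bub1, of the spindle checkpoint, and Vim, a filament gene of radial glia, fell by 0.46, 0.57 and 0.43. Each was lower in the shBrpf1 culture of each pair, although the groups overlapped. Of 20 astrocyte genes, 18 had a negative change and 4 fell, Hes5 (-0.67), Ppp1r3c (-0.47), Aldh1l1 (-0.31) and Glul (-0.38), with a median of -0.25. Astrocyte medians were -0.49, -0.23 and -0.07 in pairs 1, 2 and 3, and 9 of the 20 were higher in the shBrpf1 culture of pair 3. Without the block, no gene of either list reached an unadjusted p under 0.05.

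Fibroblast markers had a positive change for 12 of 16 genes and a negative one for 4. Their median was 0.50 (0.32 without the block), with none past the test. In pair 1, 11 of the 16 were higher in the shBrpf1 culture, while Fn1 and Col6a1 were lower, with log2 ratios of -1.70 and -2.15. Col1a1, a collagen gene, had 25.7, 104 and 46.4 CPM in scramble and 102, 130 and 61.3 CPM in shBrpf1 cultures (0.89, SE 0.38), and the list summed to 513 and 965 CPM in pair 1. The medians of the list were 1.67, 0.08 and 0.23 in pairs 1, 2 and 3. Tgfbi and Col15a1, named above among the largest rises, are matrix genes that such cells also express, and the part of these cells in them was not tested.

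Interferon response genes leaned down: 22 of 33 had a negative change, 4 fell, beside 1.76% of all genes, and none rose, with a median of -0.22. B2m, the MHC class I light chain gene, had 62.2, 125 and 32.9 CPM in scramble and 43.7, 101 and 29.7 CPM in shBrpf1 cultures (-0.33, SE 0.11). Isg20, an exonuclease gene, and Gbp2, a GTPase gene, were past the threshold at -1.27 and -1.09, and Psmb8 fell by 0.85. Isg20 had at most 39 counts in any library. Gbp8, named above among the largest rises, was not in the interferon list.

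Cholesterol and glycolysis genes had their medians farthest from 0 in pair 1. Of 24 cholesterol synthesis and uptake genes, 22 had a positive change in the fit and 2 rose, Stard4 (0.34) and Hsd17b7 (0.48). All 24 were higher in the shBrpf1 culture of pair 1, with a median of 0.90, against medians of -0.13 and 0.03 in pairs 2 and 3. Of 28 glycolysis and hypoxia genes, 25 had a negative change, none passed the test, and the medians were -0.68, 0.09 and -0.12. Vegfa, the hypoxia-induced growth factor gene, had 333, 112 and 93.5 CPM and then 96.9, 77.5 and 103 CPM (-0.72, SE 0.39). Aldoc and Pfkl, glycolytic enzyme genes, were at -0.32 (SE 0.13) and -0.32 (SE 0.15), Slc2a1, a glucose transporter gene, at -0.61 (SE 0.31) and Ddit4 at -0.19 (SE 0.10).

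The other lists are given by their counts, beside 3.14% of all tested genes that rose and 1.76% that fell. The list of homeobox and patterning factors had 25 tested genes with 1 rise (Tbx2) and 1 fall (Pax6, -0.52), and a median of -0.03. Irx1, a homeobox gene named above among the largest falls, was not in this list. Emx2 and Prox1, regulators of the hippocampal field and dentate gyrus, were at -0.23 (SE 0.10) and 0.49 (SE 0.22) and did not pass. Cajal-Retzius markers had 1 rise of 8 genes and a median of -0.11. That rise was Calb2, counted above among the inhibitory neuron markers too. Neuropeptide genes had 1 rise and 1 fall of 23 (0.03). Serotonin, monoamine and acetylcholine receptors had 3 rises of 27 (0.16), Wnt, BMP and FGF pathway genes 1 rise and 3 falls of 44 (-0.08), and cytokines and chemokines 2 rises and 3 falls of 19 (-0.21). Ependymal and choroid plexus genes had 1 rise of 15 (0.24) and integrated stress response genes 1 fall of 26 (-0.13). Other acetyltransferases and deacetylases had 1 rise of 20, with a median of 0.003. No gene rose or fell among the 13 endothelial and mural markers (0.02), 5 microglial markers (-0.28), 51 ribosomal protein genes (-0.09), 46 nuclear and 13 mitochondrial respiratory chain genes (0.03 and 0.12), 20 p53 targets (0.004) and 11 histone genes (0.24).

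Genes that rose were longer than those that fell. When the tested genes were split by length into 4 bins of like size, the longest bin (4247 bases or more) held 270 of the 504 genes that rose and 36 of the 283 that fell, while the shortest bin held 27 and 74. The log2 ratio correlated with length at a Spearman rho of -0.003 in pair 1, 0.20 in pair 2 and 0.14 in pair 3, as a description across genes. With a smooth length trend removed from each library, 440 genes rose and 275 fell. The part of length in the channel, receptor and guidance lists was not tested.

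Genes were also compared by whether the 3′ UTR held a match to the shRNA seed. The 7 bases TTGAACT, searched on the mRNA strand, occurred in the 3′ UTR of 2316 of 14116 tested genes with one (16.4%). The median log2 fold change was 0.03 with a match and 0.002 without, and the median UTR lengths were 2564 and 1014 bases. Within the longest of 4 bins of UTR length, the medians were 0.05 with a match and 0.06 without, and 12 of 1282 genes with a match fell, beside 14 of 2247 without. In the second longest bin the medians were 0.004 and 0.008, and 16 of 639 and 62 of 2883 genes fell. No difference between genes with and without a match was tested.

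The CA1 tissue of the study came from mice injected with the same viruses at 4 weeks of age, with 8 weeks after birth as the labelled stage. The CA1 libraries had no part in choosing these genes. Their tables list 0 counts for all 972 genes of chromosome 13 and all 110 of chromosome Y, whereas 808 of the chromosome 13 genes had counts in the neuron libraries, so that 586 genes of chromosome 13, Homer1 and Tgfbi among them, and 7 of Y that were tested in neurons could not be compared. Of the 478 genes that rose in neurons and were tested in CA1, 396 (82.8%) were higher in the CA1 tissue labelled shBrpf1, beside 50.6% of all genes tested in both. In CA1, however, the log2 fold change followed gene length at a rho of 0.49: of all genes in the longest bin 83.9% were higher, and of those that rose in neurons 94.1%. In the shortest bin these shares were 21.8% and 48.0% (12 of 25 genes). Of the 270 genes that fell in neurons and were tested in CA1, 167 (61.9%) were lower there. The other 103 (38.1%) were higher, beside 50.6% of all genes tested in both. From the shortest to the longest bin, 18.3%, 28.9%, 53.6% and 65.6% of those that fell were higher. The shares over all genes in these bins were 21.8%, 36.4%, 59.0% and 83.9%. An unadjusted p under 0.05 in CA1 in the same direction was reached by 6 of the 478 and 3 of the 270 genes, and in the opposite direction by 1 and 0. Over all 15038 genes tested in both, 113 did so in the same direction and 82 in the opposite one.

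Among the 114 named genes tested in CA1, 4 passed an unadjusted p under 0.05, against 1.48% of all genes, and none passed adjustment. The log2 fold change in CA1 was -0.38 (SE 0.15) for Brpf1, -1.13 for Eomes, -1.34 for Calb2 and 0.54 for Vip. Of these, Calb2 had moved the other way in neurons. Zbtb20 was at 1.20 (SE 0.58) and Grin2a at 1.34 in CA1, neither of them past the test. The difference between CA1 and neurons had an unadjusted p under 0.05 for 22 of 119 named genes, beside 2.29% of all genes, and an adjusted one for none, but this test uses the neuron libraries that chose the genes. For Brpf1 the difference was -0.35 on the log2 scale and did not pass.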

How the data were processed

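Per the study's methods, the authors trimmed the reads, aligned them with STAR and took gene counts from StringTie, and the deposited tables hold whole-number counts per NCBI gene ID with no normalization, and a gene length. The labels name mm9 as the build, and strand and multiple mapping are not given in the sources used here, so that overlapping genes, antisense genes and near-identical copies are uncertain. Gene IDs were named by RefSeq GRCm38.p6 (25275), GENCODE M21 (18) and the ID columns of the paper's supplement (50), which leaves 1836 unnamed; these were tested under their numbers.

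Genes with 10 or more counts in 3 libraries or more were tested with edgeR 4.0.16 in R 4.3.3 (TMM, robust quasi-likelihood fit, replicate number as a block). SE is the size of the log2 fold change over the square root of F. Within-pair ratios use log2 CPM with a prior count of 2. DESeq2 1.42.0 and limma-voom 3.58.1 were alternatives, and figures were drawn with matplotlib 3.10.9. Scripts were tested on simulated data.

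The titles give the replicate numbers, and same-numbered libraries deviated together in each of the 3 pairs (r = 0.52 to 0.87), so the numbers were taken to pair the cultures. The labels do not say that cultures were separate, so p-values measure the spread between these libraries. The members, the block, the 38 lists and the tests were chosen with earlier results of these data known, including counts with and without the block, and 22 lists were picked for description by gene after all list medians had been seen. Named genes are the 12 largest rises and 12 largest falls past the threshold with one sign in the 3 pairs and a mean of at least 1 CPM in the higher group, the 6 lowest p-values in each direction, genes the paper names for neurons, and, from each of the 22 lists, the members of lowest p (4 at most); others (such as Sst, Fos, Npas4, Vegfa, Sox10, Olig1, Mbp, Gfap, Scn2a and Scn8a) were chosen after their values were seen. Genes at 0 in every library of a tissue were left out of the CA1 comparison, a step added after the zeros on chromosomes 13 and Y were found. A few genes that the rule names are not reported here. No set test was run.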

Additional observations from a re-analysis of the deposited data

How the results depend on the processing

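Results were recomputed under 10 alternatives. Without the replicate block, 8 genes were higher and 1 lower at the threshold, and 9 rose and 3 fell at an unadjusted p under 0.05, against 25, 26, 504 and 283 in the paired fit. With at least 50 counts required, 9 were higher and 9 lower, and with no filter 41 were lower; fewer or more genes were tested in these fits (13818 and 21901). DESeq2 with the block gave 1 gene under an adjusted p of 0.05, and edgeR and limma-voom gave none. Leaving out both libraries of one replicate number gave 32 to 53 genes higher and 15 to 78 lower at the threshold, and 135 to 744 that rose and 143 to 403 that fell. Brpf1 ranged from -0.15 without replicate 1 to 0.058 without replicate 3, where its sign turned. Mag turned to 0.021 without the block, and ranged from -1.92 without replicate 3 to 0.10 without replicate 1. The causes of these shifts were not tested. Of 93 named genes past an unadjusted 0.05 with the block, 86 were not past it without. DESeq2 size factors and the removal of the length trend kept the counts within 1.5 times. Depth limits the largest changes: 28 of the 51 genes past the threshold had under 100 counts in every library.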
